A study of Mus musculus with 5 samples.

Results

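Liver-type plasma protein and apolipoprotein genes were followed over mouse embryonic stem cells (ESCs) and their derivatives on the way to heart muscle. The genes were Afp, Ttr, Apob, Apom, Apoc2, Rbp4, Hnf4a and Tdo2, 8 of 17742 named genes, and they were taken as all probes carrying 1 of these symbols, ignoring case. They were measured by 10 probes, of which 3 belonged to Rbp4, and all 5 arrays of the study were used. The study compared control cells with cells carrying a knockdown of Linc1405, a long non-coding RNA that the series title places in a complex with the T-box factor Eomes.

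Each of the 5 groups was 1 sample on 1 array, so the spread between cultures is unknown and no test was possible. Undifferentiated ESCs of the line 46C (day 0, control genotype) had been grown on feeder cells in 15% serum with leukaemia inhibitory factor at 1000 U/ml, and the feeders were removed at harvest. Control and knockdown cells at day 4, called mesoderm in the labels, grew without serum, with 5 ng/ml VEGF, 5 ng/ml Activin A and 0.2 ng/ml Bmp4. Control and knockdown cells at day 10, called cardiomyocytes in the labels, were in medium with bFGF at 10 ng/ml, VEGF at 5 ng/ml and FGF10 at 25 ng/ml. The sample titles mark the knockdown line with the suffix KIpA, and neither the meaning of that suffix nor the number of clones behind the line is given in the sources used here. No named probe was matched to Linc1405, which leaves the knockdown itself unchecked.

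In the mouse embryo many plasma proteins and apolipoproteins are made first by the visceral endoderm, the epithelium that covers the yolk sac, and later by the fetal liver. Both tissues export lipoproteins and carriers of retinol and thyroid hormone to the rest of the embryo. Hnf4a encodes a nuclear receptor that, with factors of the HNF1 and FOXA families, activates many of the genes for plasma proteins in both places.

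Levels are given as log2 of the array intensity after quantile normalization, which gives all arrays the same distribution of values, with intensities under a floor of 100 set to 100 (a log2 level of 6.64). Levels are compared only between arrays for the same probe, since probes differ in brightness. A gene was called at a difference of at least 2-fold, which is 1 on the log2 scale. The only measure of error was the SD between probes of the same gene, which covers probe error and not variation between cultures. That SD was 0.21 for knockdown against control at day 4 and 0.27 at day 10. It was 0.61 for control day 4 against ESCs, 0.74 for control day 10 against control day 4 and 0.70 for knockdown day 10 against knockdown day 4.

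The arrays carried markers of their labels, and the control day 10 array carried those of other cell types as well. All 8 measured pluripotency genes were at least 2-fold lower at day 4 than in ESCs, 9 of 11 streak and mesoderm genes were at least 2-fold higher, and all 13 measured cardiomyocyte genes were at least 2-fold higher in control cells at day 10 than at day 4. The list holds 21 cardiomyocyte genes in all. Of all named genes, 10.8% were lower and 9.54% higher at day 4 than in ESCs, and 14.3% were higher in the control day 10 comparison. In that comparison 8 of 8 fibroblast genes and 9 of 10 macrophage genes were also at least 2-fold higher. Endothelial genes had 8 of 9 higher and 1 lower, and parietal endoderm genes 8 of 11 higher and 2 lower. Definitive endoderm and gut genes had 1 of 19 higher and 8 lower. Extra-embryonic and visceral endoderm genes were divided, with 5 of 21 higher and 6 lower. Epicardium and mesothelium genes had 5 of 9 higher and 2 lower. The share of all named genes at least 2-fold lower in this comparison was 14.4%. Deposited medians ran from 344 to 745 before normalization.

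All 8 genes were lower in knockdown than in control cells at day 10, each by more than 2-fold. The median log2 difference was -3.42, against 0 for all named genes. Of the named genes 2.72% were at least 2-fold lower and 2.02% at least 2-fold higher in this comparison, and of those past the intensity filter described next 3.65% and 2.53%. Tdo2 stood at 7.51% of its control level, Apob at 7.68%, Apom at 8.89%, Ttr at 9.23% and Rbp4 at 9.40%, while Afp kept 18.0%, Apoc2 18.1% and Hnf4a 30.1%. Earlier results of these arrays were known when the 8 genes were chosen. The count and the ranks below thus describe them and support nothing further. That filter kept 10890 genes whose brighter array reached the 50th percentile (a log2 level of 9.16), all 8 genes among them. Of these, 4 had a lower difference than Tdo2, 5 than Apob, 9 than Apom, 10 than Ttr and 11 than Rbp4. The corresponding numbers were 27 for Afp, 28 for Apoc2 and 97 for Hnf4a. Apob, Apoc2 and Hnf4a passed the filter through the control array alone. In bulk RNA, fewer cells of a type and less RNA per cell cannot be told apart.

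**Figure D1:**
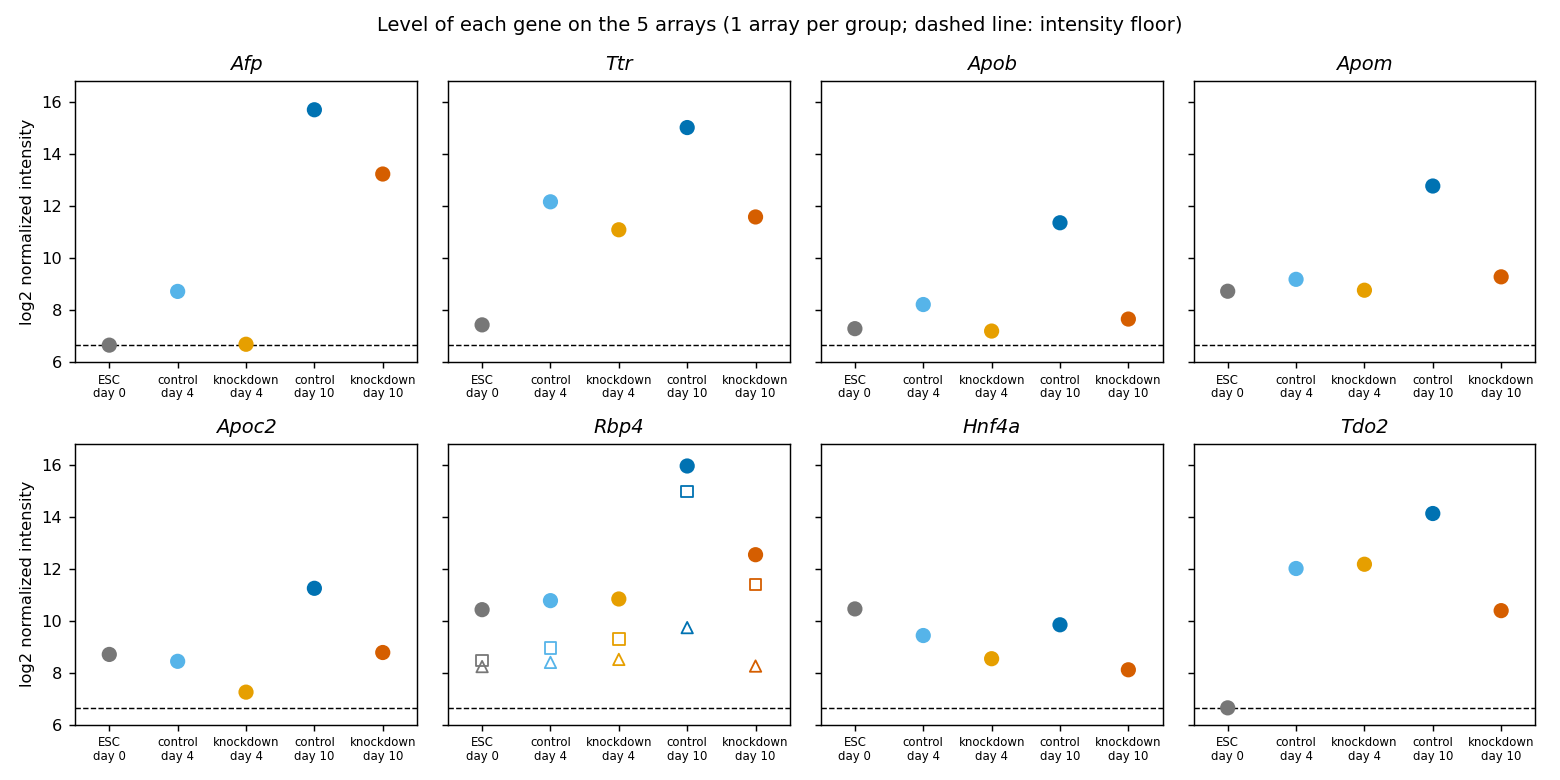
Log2 normalized intensity of each gene (y axis) on the 5 arrays (x axis), with 1 point per probe and array. Filled circles are the brightest probe, open squares and triangles are the other probes of Rbp4, and the dashed line is the intensity floor. The control day 10 array is the highest for every gene except Hnf4a, whose highest array is ESC.

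At day 4 the genes were not all lower. Afp, Ttr, Apob and Apoc2, 4 of 8, were at least 2-fold lower in knockdown cells, against 1.35% of all named genes and 1.49% of those past the filter. None of the 8 was at least 2-fold higher, against 0.721% and 0.804%. Apom and Hnf4a were lower by less than 2-fold, and Rbp4 and Tdo2 were level within the SD between probes. The median log2 difference was -0.96. Of the genes called, only Ttr passed the filter on low intensity on its brighter array; Afp, Apob and Apoc2 were dim in both lines at day 4, and 5 of 8 genes passed. With the values as deposited only Afp was called, and the median was -0.71, while the median of all genes stood at 0.20.

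**Figure D2:**
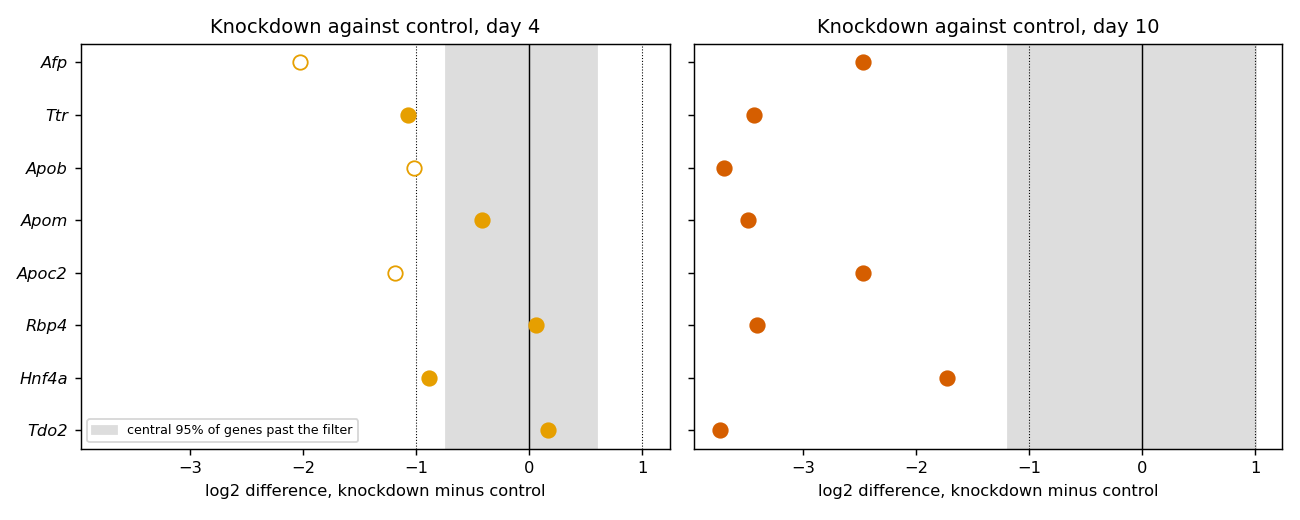
Log2 difference of knockdown minus control (x axis) for each gene (y axis) at day 4 on the left and at day 10 on the right, with 1 array per group. Filled points passed the intensity filter, open points did not, the grey band holds the central 95% of all genes past the filter, and dotted lines mark 2-fold. At day 10 all points lie to the left of the band, which runs from -1.19 to 1.01, and at day 4 Apom, Rbp4 and Tdo2 lie inside it.

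Promoter sequences show what lies before the starts of genes that were low together. RefSeq windows of the build GRCm38.p6 were matched for 7 of the 8 genes, all but Ttr. Hnf4a and Rbp4 each had 2 starts, which gave 9 windows of 250 bases, ending just before the start. The words searched, on both strands, were GTTAAT (a core of HNF1 sites), TGTTTAC and TGTTTGC (cores of FOXA sites), CAAAGTCCA (a word of HNF4 sites), AGATAA, a word of sites for the zinc-finger family of Gata6, and TATAAA, the core promoter word. None of these words contains another. Afp is shown for the largest difference of day 10 against day 4 within each line. Apob and Apom are shown as the pair with the most similar levels over the arrays. Tdo2 is shown for the largest difference of knockdown against control at day 10. Capitals mark the matches. The windows are chr5:90490464-90490713 on the plus strand for Afp, chr12:7977427-7977676 on the plus strand for Apob, chr17:35131802-35132051 on the minus strand for Apom and chr3:81975729-81975978 on the minus strand for Tdo2.
Afp: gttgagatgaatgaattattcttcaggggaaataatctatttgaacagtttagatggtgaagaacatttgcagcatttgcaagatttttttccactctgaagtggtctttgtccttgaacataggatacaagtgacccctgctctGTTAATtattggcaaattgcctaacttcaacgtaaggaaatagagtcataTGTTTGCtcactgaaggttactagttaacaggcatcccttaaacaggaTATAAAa
Apob: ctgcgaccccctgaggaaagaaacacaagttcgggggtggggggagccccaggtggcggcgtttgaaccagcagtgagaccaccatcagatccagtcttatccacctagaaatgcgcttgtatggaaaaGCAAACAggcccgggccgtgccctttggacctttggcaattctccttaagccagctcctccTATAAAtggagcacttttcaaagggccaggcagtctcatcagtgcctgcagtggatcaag
Apom: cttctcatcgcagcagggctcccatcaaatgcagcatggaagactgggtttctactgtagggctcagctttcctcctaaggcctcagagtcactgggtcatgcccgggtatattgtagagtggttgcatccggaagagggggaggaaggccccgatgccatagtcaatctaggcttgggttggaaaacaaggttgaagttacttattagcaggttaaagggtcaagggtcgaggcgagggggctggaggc
Tdo2: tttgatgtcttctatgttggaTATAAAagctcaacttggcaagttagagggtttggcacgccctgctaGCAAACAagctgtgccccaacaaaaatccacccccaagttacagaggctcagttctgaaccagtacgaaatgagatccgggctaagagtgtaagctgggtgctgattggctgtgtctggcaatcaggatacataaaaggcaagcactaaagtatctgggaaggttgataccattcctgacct

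Positions count back from the start, with -1 the base just before it. In Afp the HNF1 core lies at -105 to -100, the FOXA core at -55 to -49 and TATAAA at -7 to -2. Apob holds a FOXA core at -121 to -115 and TATAAA at -60 to -55, and Tdo2 a FOXA core at -182 to -176 and TATAAA at -229 to -224. Apom holds none of the words. Outside the printed windows, the downstream start of Hnf4a had 2 copies of the HNF1 core, at -81 to -76 and at -74 to -69. Over the 9 windows the HNF1 core was found in 3, from Afp, Apoc2 and Hnf4a, against 6.43% of 32851 windows in the same table. The FOXA cores were found in 4 windows against 7.29%, TATAAA in 4 against 12.4%, AGATAA in 1 against 9.99% and the HNF4 word in 0 against 0.384%. A match describes letters in a window and no binding was measured here.

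Hnf4a, the transcription factor of the set, followed a course of its own. Its log2 level was 10.45 in ESCs, 9.42 for control and 8.53 for knockdown cells at day 4, and 9.84 for control and 8.11 for knockdown cells at day 10. ESCs were thus the highest array and knockdown day 10 the lowest, and in the order of levels only control and knockdown day 4 differed as neighbours by more than the SD between probes. Knockdown against control was -0.89 at day 4, or 53.9% of control, and -1.73 at day 10, a 3.32-fold difference. The control line differed by 0.41 between day 4 and day 10, within the SD between probes, and that difference was -0.43 with the values as deposited. Probe positions are not given in the sources used here, so the probe was not assigned to either start.

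Afp encodes alpha-fetoprotein, a major plasma protein of the yolk sac and fetal liver. Its log2 level was at the floor of 6.64 in ESCs, 8.71 for control and 6.68 for knockdown cells at day 4, 15.70 for control and 13.22 for knockdown cells at day 10. Both day 10 arrays stood far above all earlier ones, and knockdown day 4 lay just above the floor. Day 10 was 127-fold above day 4 in control cells. In knockdown cells day 10 was higher by 6.55 on the log2 scale. The day 4 intensity there was 102.4, just above the floor of 100, so the floor did not enter this value. With a floor of 200 the difference was 5.58, so the sizes in the lines are not compared. Knockdown against control was -2.03 at day 4, which was -1.07 with a floor of 200 where the knockdown array lies at the floor, and -2.47 at day 10.

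Ttr and Rbp4 encode partners: transthyretin carries thyroid hormone in plasma and binds the retinol-binding protein Rbp4, which carries retinol. Ttr was at a log2 level of 7.42 in ESCs, 12.16 for control and 11.08 for knockdown cells at day 4, and 15.01 for control and 11.57 for knockdown cells at day 10. Control day 10 was the highest array and ESCs the lowest. Knockdown day 10 lay between control day 4 and knockdown day 4, within the SD between probes of each. The day 4 arrays themselves differed by more than their SD between probes. Knockdown against control was -1.08 at day 4, and at day 10 Ttr was 10.8-fold lower.

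Rbp4 was at a log2 level of 10.42 in ESCs, 10.77 for control and 10.83 for knockdown cells at day 4, and 15.94 for control and 12.53 for knockdown cells at day 10. On this brightest probe both day 10 arrays were above the 3 earlier arrays. Among those 3, neighbours in order of level did not differ by more than the SD between probes. Knockdown against control was 0.06 at day 4 and -3.41 at day 10. The second probe of Rbp4 gave 0.36 and -3.58 on these days. The third probe, which was dim, gave 0.11 at day 4 and -1.48 at day 10, so the 3 probes shared the direction at day 10 and differed in size. On that dim probe knockdown day 10, at 8.25, lay below both day 4 arrays, at 8.39 for control and 8.51 for knockdown, and the knockdown course was -0.26 in place of 1.70. With the mean of all probes Rbp4 stood at -2.82 at day 10.

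The apolipoprotein genes were high on the same array. Apob, the scaffold protein of very-low-density lipoproteins, was at a log2 level of 7.28 in ESCs, 8.21 for control and 7.19 for knockdown cells at day 4, 11.35 for control and 7.65 for knockdown cells at day 10. Apom, a lipocalin carried on high-density lipoproteins, was at 8.72 in ESCs, 9.17 and 8.76 in control and knockdown cells at day 4, 12.76 and 9.27 in control and knockdown cells at day 10. Apoc2, the cofactor that activates lipoprotein lipase, was at 8.70 in ESCs, 8.43 and 7.25 in control and knockdown cells at day 4, 11.24 and 8.77 in control and knockdown cells at day 10. For each of the 3 genes only the control day 10 array stood high. Knockdown day 10 lay within the SD between probes of its lower neighbour in the order of levels: ESCs for Apob and Apoc2, control day 4 for Apom. Knockdown against control at day 10 was -3.70 for Apob, -3.49 for Apom and -2.47 for Apoc2. At day 4 it was -1.02, -0.42 and -1.18 in the same order. With the values as deposited Apob was -0.74 and Apoc2 -0.92 at day 4. Centred on their own means, the levels of Apob and Apom over the 5 arrays lay 0.23 apart (root mean square, log2), the smallest distance of any pair among the 8 genes, and Afp and Hnf4a lay 3.86 apart, the largest.

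Tdo2 encodes tryptophan dioxygenase, the liver enzyme that starts the breakdown of tryptophan. Its log2 level was at the floor of 6.64 in ESCs, 12.002 for control and 12.17 for knockdown cells at day 4, and 14.12 for control and 10.38 for knockdown cells at day 10. Both day 4 arrays were level within the SD between probes, and knockdown day 10 lay below both. Knockdown against control was 0.16 at day 4 and -3.73 at day 10, the lowest value of the set, a 13.3-fold difference. In control cells Tdo2 was 4.33-fold higher at day 10 than at day 4, and in knockdown cells the difference was -1.78.

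Between ESCs and control day 4, 3 genes were at least 2-fold higher, against 9.54% of all named genes and 12.9% of those past the filter. Tdo2 was higher by at least 5.36 and Afp by at least 2.07, with ESCs at the floor, and Ttr was higher by 4.73, or 26.6-fold. Hnf4a was the 1 gene at least 2-fold lower, at -1.02, against 10.8% and 14.0%, and with the values as deposited it stood at -0.79. Apob at 0.93, Rbp4 at 0.35, Apom at 0.46 and Apoc2 at -0.27 lay under 2-fold.

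Between day 4 and day 10 the control line had 7 of 8 genes at least 2-fold higher, all except Hnf4a, against 14.3% of all named genes and 19.2% of those past the filter; none was 2-fold lower, against 14.4% and 19.4%. The median log2 difference was 3.0, from 6.99 for Afp and 5.18 for Rbp4 to 2.11 for Tdo2 and 0.41 for Hnf4a. The knockdown line had 3 of 8 genes at least 2-fold higher, against 14.2% and 18.9%, namely Afp at 6.55, Rbp4 at 1.70 and Apoc2 at 1.52. It had 1 gene at least 2-fold lower, Tdo2, against 13.4% and 18.1%. Ttr at 0.49, Apob at 0.46 and Apom at 0.51 lay within the SD between probes in the knockdown line, and Apob turned to -0.62 and Apom to -0.14 with the values as deposited. There Apoc2 was at 0.69, under 2-fold, and Hnf4a at -1.31, past it, in place of -0.43. The course of the control line and the difference of the lines at day 10 share the control day 10 array, so a high or low reading of that array would enter both.

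**Figure D3:**
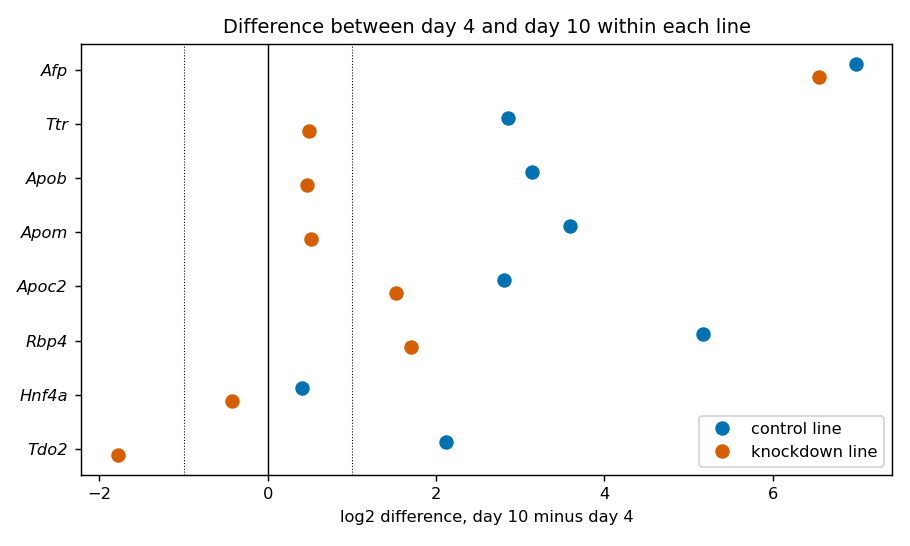
Log2 difference of day 10 minus day 4 (x axis) for each gene (y axis) in the control line and in the knockdown line, with 1 array per point and group. Dotted lines mark 2-fold. The Tdo2 points lie on opposite sides of 0. The Afp points are at 6.99 and 6.55. Knockdown day 4 lay just above the floor used, which did not enter the value of 6.55. With a floor of 200 that value is 5.58.

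Other secreted plasma proteins did not all share this difference. Of 32 measured, 8 were at least 2-fold lower and 0 at least 2-fold higher in knockdown cells at day 10, with a median of -0.28. Only 15 of the 32 passed the intensity filter in this comparison. The rest were dim on both arrays, which limits their differences and the median. The shares of all named genes were 2.72% and 2.02%, which also apply to the day 10 counts of the lists below. In those lists the filter kept 17 of 28 apolipoprotein and lipoprotein genes and 14 of 21 transcription factors at day 10. It kept 8 of 14 retinol genes and 8 of 12 tryptophan genes. Among the 8, Fgg at -1.12 and Afm at -1.11 did not pass the intensity filter. Igfbp1, which binds insulin-like growth factors, was at -3.32, Fgb, the fibrinogen beta chain, at -2.505, Trf, transferrin, at -1.67 and F2, prothrombin, at -1.53. Alb, the main plasma protein of liver after birth, was named after its values were seen: its log2 level was 7.40 in ESCs, 7.70 and 7.76 in control and knockdown cells at day 4, and 12.16 and 12.24 in control and knockdown cells at day 10. Alb was thus higher at day 10 in both lines, by 4.46 in control and 4.48 in knockdown cells, with a difference of 0.08 between the lines on its single probe.

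Among 28 other genes of apolipoproteins and lipoprotein assembly, 4 were at least 2-fold lower and 0 at least 2-fold higher at day 10, with a median of -0.21. Apoa1, the main protein of high-density lipoproteins, was at -3.14 and Apoa2 at -1.56. Soat2, which esterifies cholesterol, was at -1.27, and Dgat2, which makes triglyceride, was at -0.76. The fourth gene, Apoa4, was at the floor in knockdown cells, so its difference of -1.26 is a bound. Mttp, which loads lipid onto Apob, was named for that role after its values were seen and stood at -0.72 on both of its probes.

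Of 21 liver-enriched transcription factors, 4 lay at least 2-fold lower at day 10 and none higher by that much, with a median of -0.09. Prox1, a homeobox factor of hepatoblasts and lymphatic endothelium, was at -1.31 and Foxa3 at -1.26. Foxa1 and Foxa2, named as the others of this count of 4, were at -2.03 and -1.85 at day 10 and at -1.95 and -1.68 at day 4, but neither passed the intensity filter at day 10, and Foxa1 was at the floor in knockdown cells there, so its difference is a bound. Nr5a2 was at -0.89 and Gata6 at 0.68. At day 4, 3 of 21 were at least 2-fold lower, namely Foxa1, Foxa2 and Creb3l3 at -1.12.

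The lists around Rbp4 and Tdo2, retinol handling and tryptophan breakdown, held no gene 2-fold lower at day 10. Of 14 measured retinol genes, 3 had a 2-fold or larger excess in knockdown cells at day 10. They were Lrp2, the endocytic receptor megalin that takes up retinol-binding protein, at 2.51, Aldh1a2, the embryonic enzyme of retinoic acid synthesis, at 2.38 and Dhrs3, a retinal reductase, at 1.90. Crabp2 was at -0.43, and the list median was 0. Of 12 other genes of tryptophan use, 0 were at least 2-fold apart in either direction at day 10, with Kyat3 at 0.59, Tph1 at 0.39, Kyat1 at -0.36 and Afmid at 0.34.

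**Figure D4:**
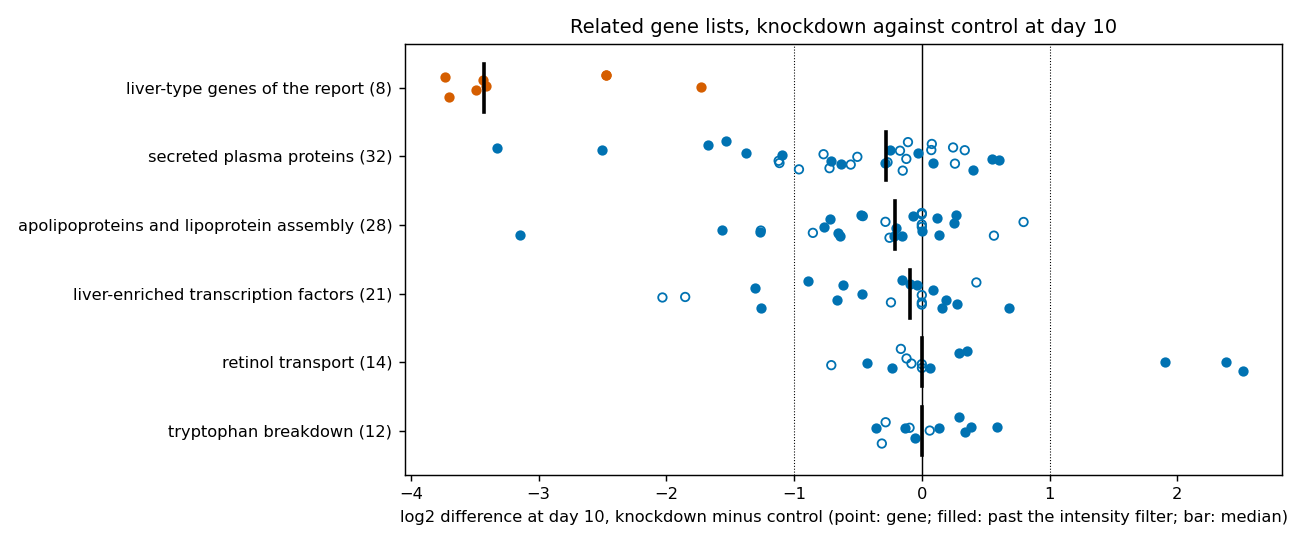
Log2 difference of knockdown minus control at day 10 (x axis) for the 8 genes and for 5 related lists (y axis, number of measured genes in brackets), with 1 point per gene and a bar at the median. Filled points passed the intensity filter and dotted lines mark 2-fold. The 8 genes lie between -3.73 and -1.73, and the medians of the related lists lie between -0.28 and 0.

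The genes whose course over the 5 arrays lay closest to the median course of the 8 were Nepn, Tff3, Sptb, Lmo7, Panx2, Apoa1, Tnnc1, Clic5, Cpeb2 and Afap1l1. The measure was the root mean square difference of log2 levels, each gene centred on its own mean over the 5 arrays. It was 0.40 for Nepn and 0.63 for Afap1l1. Apom at 0.22 and Apob at 0.24 lay closest among the 8 genes themselves, and Afp at 2.42 lay farthest. At day 10 Nepn was at -3.02 and Tff3, a trefoil peptide of mucosal epithelium, at -3.68, and Tnnc1, the cardiac troponin C gene, was at -1.64. Both day 10 arrays entered the measure, so the choice of these genes favoured low differences at day 10.

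Markers of other cell types also differed between the day 10 arrays. Of 13 cardiomyocyte genes, 10 were at least 2-fold lower in knockdown cells and 1, Tnnt2, was higher. Their summed intensity was 689000 in control and 342000 in knockdown cells. Of 10 macrophage genes, 7 were at least 2-fold lower, with sums of 42400 and 18100, and of 9 epicardium and mesothelium genes, 8 were at least 2-fold higher, with sums of 47400 and 166000. Of 19 genes of definitive endoderm and gut epithelium, 6 were at least 2-fold lower and 0 higher, with sums of 45400 and 27900. The 21 genes of extra-embryonic and visceral endoderm were divided, with 6 at least 2-fold lower, led by Spink1 at -5.17 and Cldn6 at -2.87, 1 higher, Lrp2, 14 of 21 below 0 and a median of -0.47. Their sums were 170000 and 169000. Each sum is weighted to its brightest probes. Here these included Gata6, at 15.03 in control and 15.71 in knockdown cells, Amot, at 14.80 and 14.89, and Rhox5, at 14.14 and 14.76. Cited1, also bright, was lower in knockdown cells, at 14.20 and 13.60. Parietal endoderm (11 genes) and fibroblast genes (8) had 0 genes at least 2-fold apart, endothelial genes 1 of 9 higher, and choroid plexus genes 1 of 9 lower. Pluripotency genes had 2 of 8 lower, Tfcp2l1 at -1.88 and Tdgf1 at -1.40, and streak and mesoderm genes 2 of 11, Fgf8 at -1.72 and Evx1 at -1.13, with none higher. The counts in these lists use the brightest probe of a gene. For some genes called, every other probe lay under 2-fold at day 10. These were Fgf8 (-0.49 and -0.05), Tfcp2l1 (0.00), the macrophage gene Ptprc (0.00), the visceral endoderm gene Emb (-0.22) and the epicardium gene Sema3d (0.46). At day 4, 5 of the 19 gut and definitive endoderm genes and 4 of the 21 visceral endoderm genes were at least 2-fold lower, and 1 and 0 were higher. The part of these cell types in the differences of the 8 genes was not tested.

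The label "liver-type" was set against genes of mature liver. Of 12 measured genes of mature hepatocytes, only Alb and Fah passed the intensity filter at day 10. In control cells at day 10 Cps1, Otc, Tat, G6pc and Arg1 were at the floor, and in knockdown cells Cps1, Otc and G6pc were. The summed intensity of the 12 genes, 28500 in control and 32300 in knockdown cells, came mostly from Fah, at a log2 level of 14.42 and 14.62, and does not describe the class. There were 0 genes at least 2-fold lower and 1 higher, Pck1, which was dim. Afp, Ttr and the apolipoprotein genes were thus high on an array where several urea cycle and metabolic genes of mature liver were at the floor.

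**Figure D5:**
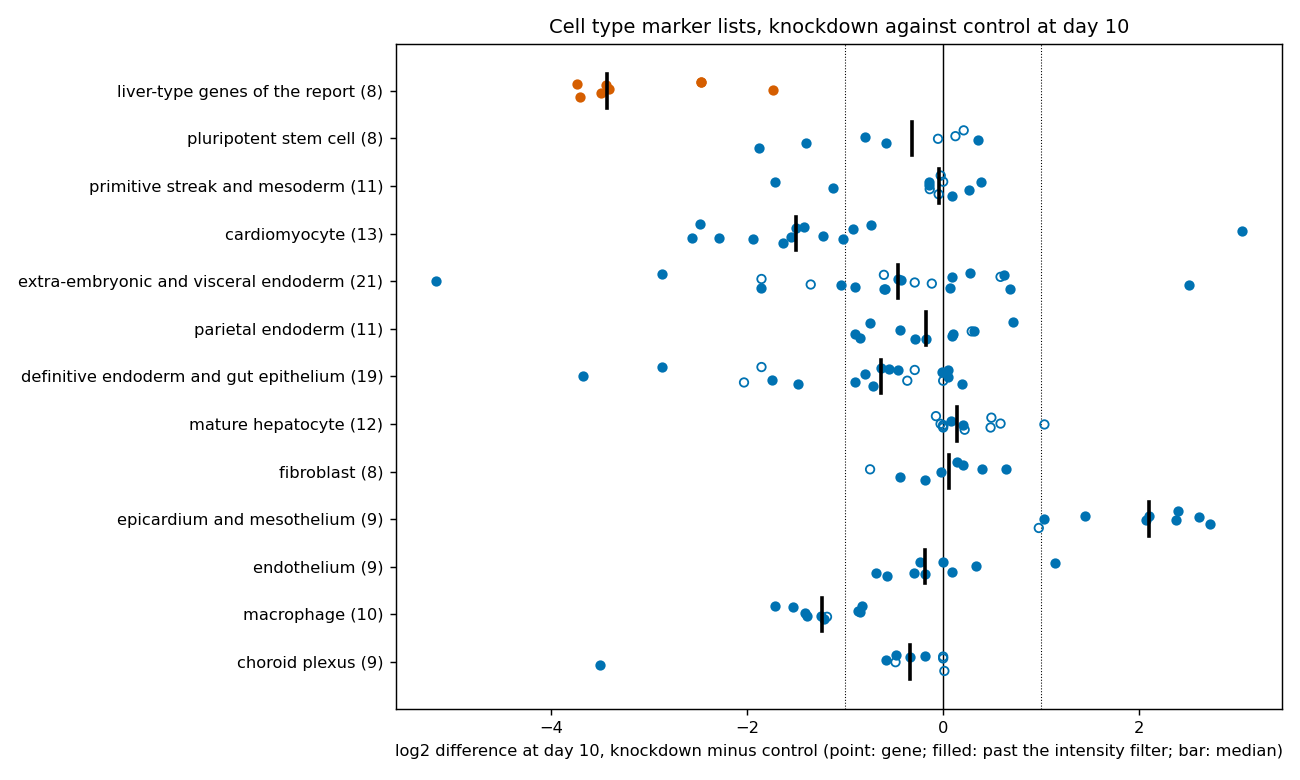
Log2 difference of knockdown minus control at day 10 (x axis) for the 8 genes and for 12 lists of cell type markers (y axis, number of measured genes in brackets), with 1 point per gene and a bar at the median. Filled points passed the intensity filter and dotted lines mark 2-fold. Median differences were -1.50 for cardiomyocyte, -1.23 for macrophage, 2.10 for epicardium and 0.14 for mature hepatocyte genes.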

How the data were processed

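Total RNA from 5 mouse cultures was amplified, labelled with Cy5 and hybridised to single-colour arrays, per the labels' protocols. The authors deposited linear probe intensities. Their medians and 75th percentiles differed between arrays, so they were treated as not normalized, and values at or below 0 (up to 1050 on an array) are what a background subtraction leaves; neither step is stated. The highest deposited value, 651706, exceeds the usual range of scanner output, so some scaling by the authors, not stated, may precede the values called as deposited. Agilent Feature Extraction 10.7.1.1 is named in the submitters' processing notes; other steps are not given in the sources used here.

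Intensities of 26423 probes were quantile normalized over the 5 arrays, set to a floor of 100 (19.0 to 19.1% of probes) and converted to log2. Of the probes, 20377 carried 1 symbol, 0 several and 6046 none. Symbols were updated through a table of GRCm38.p6, 18213 by current symbol and 2126 by synonym, and 38 kept an older one. The brightest probe stood for a gene, and 2278 genes had several. Groups came from the sample titles. A difference is 1 array minus another and is a bound where 1 lies at the floor. Counts over all named genes used no intensity filter unless stated. The SD between probes was that of the disagreement in log2 difference between the 2 brightest probes of a gene, both past the 50th percentile, divided by the square root of 2. With 5 arrays, whose number limits precision, no p-value is given. Named genes of a related list were up to 4 with the largest difference at day 10 past the filter, and any at least 2-fold in the opposite direction to the 8 genes; the 10 genes of most similar course were also named. The 8 genes and all lists were chosen with earlier results of these data known. Steps were tested on simulated data. Software was Python 3.11.15, numpy 2.4.6, pandas 2.3.3 and statsmodels 0.14.6. Alternatives were the values as deposited, a common 75th percentile, loess centring of the pair (span 0.3, 3 iterations), floors of 50 and 200, a 4-fold threshold, other filters and the mean of all probes.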

Additional observations from a re-analysis of the deposited data

Results flagged for a closer look

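Rbp4 and Tdo2 were picked out because the knockdown array lay on opposite sides of the control array on the 2 days. Rbp4 stood at 0.063 at day 4 and -3.41 at day 10, and Tdo2 at 0.164 at day 4 and -3.73 at day 10 (log2, knockdown minus control). Both day 4 values lie within the SD between probes of 0.21. With 1 array per group the difference between the days was not tested. The other 6 genes were lower in knockdown cells on both days.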

How the results depend on the processing

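At day 10 all 8 genes were at least 2-fold lower in knockdown cells under every alternative run with that threshold, and 7, all except Hnf4a, at 4-fold. Of 48 member differences recomputed for each comparison, the sign held in 48 for both knockdown comparisons and for control day 4 against ESCs. It held in 47 for the control course, where Hnf4a turned, and in 45 for the knockdown course, where Apob turned as deposited and with a common 75th percentile (-0.24) and Apom as deposited. Medians of the related lists moved by more than the SD between probes in 8 recomputations and by less in 142.

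With the values as deposited, the median of all genes was 0.20 for knockdown against control at day 4, 0.37 at day 10, 0.17 for control day 4 against ESCs, -0.72 for the control course and -0.58 for the knockdown course. The number of the 8 genes at least 2-fold lower was then 1 at day 4, 0 for control day 4 against ESCs and 2 for the knockdown course. Their median was -0.71 at day 4, -2.87 at day 10 and 2.26 for the control course. Over all genes past the filter, higher and lower calls were 123 and 115 at day 4 (86 and 159 after quantile normalization), 1139 and 185 at day 10 (276 and 397), 2250 and 1224 for control day 4 against ESCs (1454 and 1580), 1177 and 5229 for the control course (2191 and 2220) and 1454 and 3925 for the knockdown course (2154 and 2066). With loess centring the control course gave 2496 and 1681.

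A floor of 200 left 2 of the 8 genes lower at day 4, Afp and Ttr, with a median of -0.68. The mean of all probes gave a median of -3.13 at day 10. At 4-fold, 1 gene was lower at day 4, 0 were lower for control day 4 against ESCs, and 1 was higher and 0 lower in the knockdown course. At 4-fold the genes past the filter gave 12 and 20 calls higher and lower at day 4 and 63 and 60 at day 10. They gave 455 and 663 for control day 4 against ESCs, 979 and 464 for the control course and 904 and 418 for the knockdown course. A filter at the 75th percentile gave 24 and 34, 116 and 184, 678 and 764, 1229 and 1275, and 1207 and 1195 in the same order, and no filter gave 240 lower at day 4. Fewer genes are counted under those thresholds by construction. The cause of the other shifts was not tested. No paired analysis was possible because each group has 1 array. Dim genes at day 4 (Afp, Apob, Apoc2) lie near the floor, which limits their differences.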

Other observations

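Of 107 measured genes in the related lists, 103 were above the floor on at least 1 array. Their highest array was control day 10 for 32 genes, ESCs for 25, knockdown day 4 for 17, knockdown day 10 for 17 and control day 4 for 12. Genes highest in ESCs, named after their values were seen, included Qprt, which makes a precursor of NAD, at a log2 level of 17.10 in ESCs, 13.89 in control cells at day 4 and 9.55 in control cells at day 10. Lpl, lipoprotein lipase, was at 13.47 in ESCs, 7.32 in control cells at day 4 and 6.77 in control cells at day 10. Nr5a2, a nuclear receptor of liver and of the early embryo, was at 14.34, 8.37 and 9.75 on the same arrays. The ESCs had been grown on feeder cells, whose part in these levels was not tested.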
